A study of Mus musculus with 6 samples.

Results

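Platr genes carry a symbol that stands for pluripotency-associated transcript, and most of them are noncoding. The members were all genes of the GENCODE annotation of the mouse genome GRCm38 (release M21) with a symbol made of Platr and a number. There were 30 of them among 55413 annotated genes outside the mitochondrial genome. They comprised 20 of type lincRNA (long intergenic noncoding RNA), 6 of type processed_transcript, 2 of type protein_coding (Platr17, a protein-coding gene in RefSeq as well under the symbol Smim40, and Platr25), 1 antisense gene (Platr31) and 1 sense_intronic gene (Platr32). They were spread over 12 autosomes and the X chromosome, with 7 on chromosome 2, and all 30 had a spliced transcript.

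H3K27ac, acetylation of lysine 27 on histone H3, was measured by ChIP-seq in E14 mouse embryonic stem cells (mESCs) kept in N2B27 medium with LIF and 2i, the inhibitor pair that holds the cells in naive pluripotency. Control cells were given the solvent DMSO, and the other cells either NVP-2, an inhibitor of the elongation kinase CDK9, at 100 nM or actinomycin D, which blocks RNA polymerases, at 800 nM, for 120 min. Each of the 3 conditions had 2 replicates of this single cell line, and all of them were spiked with chromatin from HEK293T, a line of human embryonic kidney cells, as a reference. The labels describe the cells of all conditions as E14Tg2A with Rosa26-Cre and Oct4-IRES-Puro, and the study's methods name the line ES-E14TG2a. Only the list of control peaks, which the authors pooled over both control replicates, was analysed here. It held 22973 peaks as chromosome, start and end, without heights or counts, so the depth behind a peak cannot be read from it, no value has a replicate error and no condition was compared. A peak says that H3K27ac passed the authors' thresholds in that interval. A gene without one may have had signal below them, or a peak that the authors removed for lying away from ATAC-seq summits.

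Long noncoding RNAs are transcribed by RNA polymerase II and processed much like messenger RNAs, but most are made in few cell types and at low levels. Their transcription often starts close to a coding promoter or inside an enhancer, a regulatory element that acts on genes at a distance. H3K27ac, which the acetyltransferases CBP and p300 deposit, is found on nucleosomes at active promoters and enhancers, and runs of neighbouring enhancers give wide acetylated domains, many of them near genes that define the cell type. Platr genes were given their name because their RNA in mESCs is lost as the cells differentiate, so an H3K27ac peak at their promoters in mESCs is no independent evidence of their activity.

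A gene was called marked where a control peak overlapped the window of 1 kb on each side of any of its annotated transcription start sites (TSS) by at least 1 bp. Of the 30 Platr genes, 23 were marked, or 76.7% (95% Wilson interval 59.1 to 88.2%, which covers counting error only), beside 15.8% of all 5854 lincRNA genes (923 genes, 14.9 to 16.7%). The difference was 60.9 percentage points, or 4.86-fold, with Platr genes of all types set against lincRNA genes alone. Within type lincRNA, 14 of 20 Platr genes were marked (70.0%), beside 15.6% of 5834 other lincRNA genes. The 7 unmarked members were Platr2, Platr5, Platr7, Platr13, Platr15, Platr22 and Platr31.

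The sequences below are the promoters, from 250 bases before to 50 bases from the TSS on, of 4 marked members whose peaks reached no coding promoter. Platr19 and Platr8 were chosen for the widest and the narrowest such peak. Platr26 and Platr28 were added because they alone among the 23 marked members held 1 of the 4 searched motifs of pluripotency factors. That is 8.70% of marked Platr genes, beside 10.2% of 909 other marked lincRNA genes with any of the 4. The sequences were read from the GRCm38 genome sequence of RefSeq on the strand of the gene, and the TSS is base 251 of each. Capitals mark the match to the Klf motif GGGTGTGG, which in Platr26 lies on the opposite strand and therefore reads as its reverse complement. The Platr19 window is chr12:12787735-12788034 (plus strand), the Platr8 window chr2:109913270-109913569 (minus), the Platr26 window chr2:71719167-71719466 (plus) and the Platr28 window chr7:107242772-107243071 (plus).
Platr19: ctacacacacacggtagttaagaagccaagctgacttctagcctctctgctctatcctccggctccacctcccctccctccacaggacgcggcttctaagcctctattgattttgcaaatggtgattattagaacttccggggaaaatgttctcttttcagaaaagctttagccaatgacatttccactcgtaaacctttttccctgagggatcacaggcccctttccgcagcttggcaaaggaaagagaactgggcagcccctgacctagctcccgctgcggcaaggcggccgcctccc
Platr8: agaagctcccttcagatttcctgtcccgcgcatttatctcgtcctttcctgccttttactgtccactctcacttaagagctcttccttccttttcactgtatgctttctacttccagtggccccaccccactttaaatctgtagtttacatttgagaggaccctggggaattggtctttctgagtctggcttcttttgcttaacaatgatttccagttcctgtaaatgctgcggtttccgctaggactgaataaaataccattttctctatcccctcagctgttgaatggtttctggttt
Platr26: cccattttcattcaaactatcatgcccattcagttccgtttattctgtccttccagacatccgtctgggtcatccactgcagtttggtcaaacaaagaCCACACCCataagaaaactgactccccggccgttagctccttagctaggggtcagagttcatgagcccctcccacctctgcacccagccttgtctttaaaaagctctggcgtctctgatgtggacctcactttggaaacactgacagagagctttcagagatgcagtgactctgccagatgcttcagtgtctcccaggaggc
Platr28: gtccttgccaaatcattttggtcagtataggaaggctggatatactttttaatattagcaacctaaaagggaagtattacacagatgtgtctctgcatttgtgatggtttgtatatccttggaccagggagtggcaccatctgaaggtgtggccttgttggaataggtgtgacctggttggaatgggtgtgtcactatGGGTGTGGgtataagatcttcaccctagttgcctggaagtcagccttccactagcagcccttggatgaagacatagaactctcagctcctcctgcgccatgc

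The Klf match began at position -152 in Platr26 and at -52 in Platr28, where position 0 is the TSS. Klf proteins such as Klf2, Klf4 and Klf5 are zinc finger factors of the naive pluripotency network. Among marked genes alone, Klf matches on either strand were in 8.70% of 23 Platr promoters and in 6.05% of 909 at other lincRNA genes. With unmarked genes included, such matches were found in 2 of 30 Platr promoters and in 3.53% of 5834 promoters of the same length at other lincRNA genes. The octamer ATTTGCAT, bound by POU factors such as Oct4, was in 2 Platr promoters against 2.02% of the others, and both of these, Platr13 and Platr15, were unmarked. The core of the composite Sox-Oct site, TTGTNATGC, was in no Platr promoter and in 1.46% of the others, and the Esrrb motif TCAAGGTCA was in none and in 0.788%. The TATA box letters TATAAA were in 3 Platr promoters (Platr3, Platr5 and Platr17) against 15.6% of the others. The letters of none of the 5 motifs are contained in another, and matches that overlap in part were counted for each. A match shows only that these letters occur in the window.

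**Figure D1:**
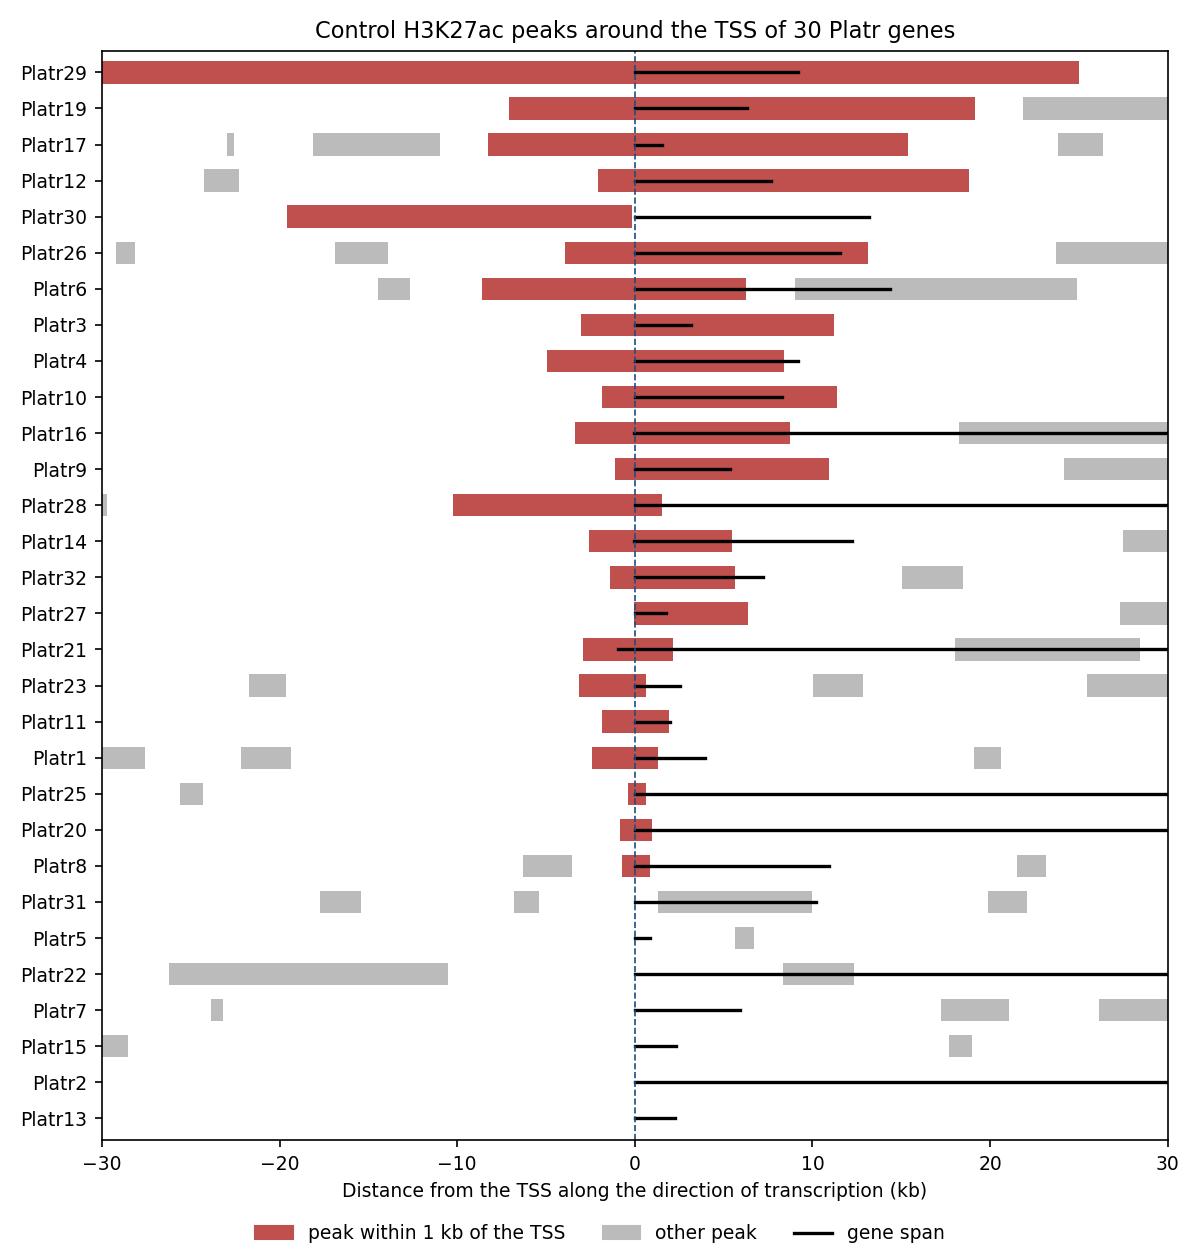
Each row is 1 Platr gene, with distance from the TSS of its longest isoform on the x axis (kb, positive in the direction of transcription). Red bars are control H3K27ac peaks within 1 kb of that TSS, grey bars other control peaks and black lines the gene's span, all clipped at 30 kb. Marked genes are sorted by the width of their widest peak and followed by the 7 unmarked genes in order of distance, so that the broad domains of Platr29, Platr19, Platr17 and Platr12 stand at the top.

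The map of peaks around each TSS shows that most marked members lay inside a broad interval rather than at an isolated narrow peak. The authors merged peaks within 2 kb of each other, so a wide interval, here called a domain, may hold gaps between separate peaks. The median width of the widest peak at the 23 marked Platr genes was 12036 bp (binomial 95% interval of the median 5062 to 14870 bp), with a range from 1548 to 77746 bp. At the 923 marked lincRNA genes the median was 3345 bp (2961 to 3744 bp), and over all control peaks it was 2068 bp. A peak of at least 10 kb was present at 13 marked members, which is 43.3% of all Platr genes beside 2.85% of all lincRNA genes. Within the marked genes alone the shares were 56.5% of Platr genes and 18.1% of lincRNA genes, and 7.51% of all peaks were that wide. The plot of peak widths shows the whole distributions. Of the marked members, 20 had a wider peak than the median of the 909 other marked lincRNA genes, and 14 lay at or above their upper quartile of 7103 bp.

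**Figure D2:**
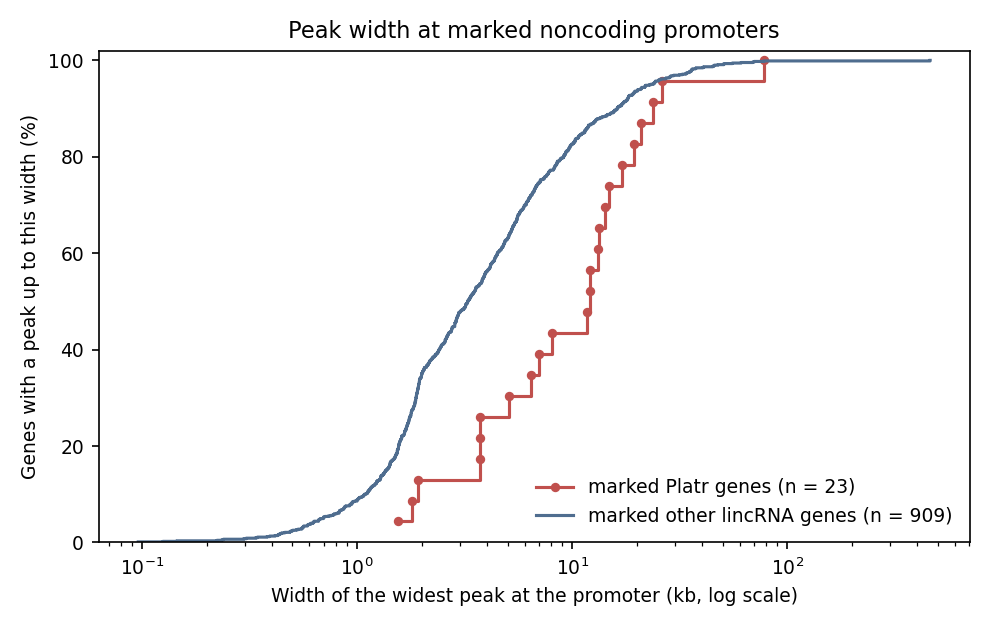
Cumulative share of marked genes (y axis, %) by the width of the widest peak at the promoter (x axis, kb, log scale), for 23 Platr genes (red, 1 point per gene) and 909 other lincRNA genes (blue). The Platr curve lies to the right of the other up to the width of the peak at Platr29, 77746 bp, with medians of 12036 bp and 3264 bp.

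Of the 13 members at wide peaks, 9 lay in peaks that reached no protein-coding promoter window. The widest of these peaks covered Platr19 (ENSMUSG00000091430.1), a lincRNA gene of 6301 bp on chromosome 12, with 26225 bp (chr12:12780908-12807132). It held the whole gene and no other annotated TSS window, and the nearest coding TSS was that of the proto-oncogene Mycn at 152.6 kb. The peak at Platr26 (chr2:71715483-71732542, 17060 bp) also covered its gene from end to end, 26.2 kb from the TSS of Itga6, a laminin receptor subunit. Platr30 lay at the edge of a peak of 19382 bp (chr3:96325721-96345102) that spread upstream of it.

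Platr6 started inside a peak of 14870 bp (chr10:21838607-21853476), 37.3 kb from Sgk1, a kinase regulated by serum and glucocorticoids. Platr4, an RNA studied in cardiogenic mesoderm commitment, started inside 13367 bp (chr3:41484786-41498152), with 62.5 kb to Jade1. Platr10 and Platr9 were covered whole, by 13234 bp (chr3:75644341-75657574) and 12036 bp (chr4:34900575-34912610). Their nearest coding genes were Serpini1, which encodes neuroserpin, at 91.1 kb and Cga, the common subunit of pituitary hormones, at 17.7 kb. The Cga promoter was itself unmarked, as was that of Tnfrsf8, the nearest coding gene to Platr16, at 95.1 kb. The Platr16 peak (chr4:145406872-145418975) measured 12104 bp, and that of Platr28 (chr7:107232770-107244538) 11769 bp, most of it upstream of the gene.

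At the other 4 wide peaks a coding promoter lay in the same domain. The peak at Platr29 (ENSMUSG00000084816.1) was the widest of all members with 77746 bp (chr2:165960938-166038683). It also held the promoters of Gm11464 and Ncoa3, a coactivator of nuclear receptors whose TSS lay 6.71 kb from that of Platr29. The peak at Platr17 (chr17:33896840-33920514, 23675 bp) held Daxx, which encodes a histone H3.3 chaperone, Tapbp, which encodes tapasin, and Zbtb22. Platr12 shared 20919 bp (chr1:63198227-63219145) with Gpr1, and Platr3 shared 14209 bp (chr2:135645883-135660091) with Plcb4, a phospholipase C. In such a domain the list cannot divide the mark between the noncoding and the coding promoter.

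Intermediate peaks, from 2 to 10 kb, were found at 7 members. Platr14, an RNA depleted in earlier work on mESCs, had 8035 bp (chr2:104556616-104564650) over 5 of its 6 TSS. Platr32 had 7035 bp (chr7:81057718-81064752), shared with Alpk3, whose TSS lay 1.51 kb away. Platr27 had 6425 bp (chr2:157590956-157597380), nearly all downstream of its start and over the whole gene. Platr21, the longest member at 117513 bp and the only one on the X chromosome, had 5062 bp around its start (chrX:139354607-139359668). Together with another peak inside the gene this covered 11.5% of its span.

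Platr23 had 3744 bp (chr1:136624037-136627780) and started 251 bp from Zfp281, a zinc finger factor of pluripotent cells, on the opposite strand. Platr11 had 3741 bp (chr9:118404194-118407934) with Eomes, a T-box factor of mesendoderm and trophoblast, 72.1 kb away. Platr1 had 3729 bp (chr1:134433208-134436936). These 3 peaks were of nearly the same width and close to the median of the marked lincRNA genes.

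Narrow peaks, under 2 kb, were found at 3 members. Platr8 had 1548 bp (chr2:109912485-109914032). The start of Lgr4, a receptor of R-spondins, lay 4.33 kb from that of Platr8 but not within reach of its peak. Platr20 had 1793 bp (chr11:51219442-51221234) and started 55 bp from Gm12569 on the opposite strand, and this peak covered 3.19% of its 30586 bp. Platr25, annotated as protein coding with 10 TSS, was the only member with several peaks, and 6 of its TSS were marked. From the 3′ to the 5′ end of the gene these peaks measured 1799 bp (chr13:62683624-62685422), 1923 bp (chr13:62711243-62713165) and 1015 bp (chr13:62760094-62761108).

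In 16 of 23 marked members (69.6%) the widest peak reached further downstream than upstream of the TSS, and over all 23 the medians were 6.244 kb downstream and 2.898 kb upstream. The share was 48.5% in other marked lincRNA genes, but 67.0% in those with a symbol that is neither a Gm number nor a Rik clone name and 66.4% in marked protein-coding genes. It was 57.1% in the 14 marked Platr genes of type lincRNA. Without genes that had a coding TSS within 5 kb it was 66.7% in Platr genes and 57.3% in other lincRNA genes. The peak covered the whole gene in 9 members (39.1%) and in 17.5% of other marked lincRNA genes. The median share of the gene span under peaks was 80.8% at marked members and 29.5% at marked lincRNA genes. Platr28 and Platr6 were among the 7 members that went the other way, with 10.3 kb and 8.63 kb upstream.

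A TSS fell within a peak in 22 members (73.3%), against 13.2% of lincRNA genes. The exception among the marked members was Platr30, whose start lay 185 bp beyond the edge of its peak, the member nearest to the threshold of 1 kb among those inside it and still marked with windows of 500 bp. Just outside the threshold was Platr31, the antisense gene, with a peak 1285 bp downstream of its start that covered 85.2% of its span (chr6:127101582-127110251, 8670 bp). Of the 53 TSS of the 30 members, 39 were marked. Among the 10 members with several TSS, all were marked in 6, some in 3 (Platr14, Platr25 and Platr30) and none in Platr5.

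The unmarked members fell into a nearer and a farther set. Platr5 lay 5570 bp and Platr22 8335 bp from the closest peak, and in Platr22 this peak was inside the gene. Platr7 and Platr15 were 17213 bp and 17706 bp away. Platr2 at 116208 bp and Platr13 at 461798 bp had no peak within 50 kb of any TSS. The median distance of the 7 was 17.2 kb, whereas unmarked lincRNA genes were at a median of 78.4 kb. Together with the marked members, 26 of 30 Platr genes (86.7%) had a peak within 10 kb of a TSS and 28 (93.3%) within 50 kb, beside 26.8% and 49.2% of lincRNA genes. Platr genes had a median of 3 peaks within 50 kb, and lincRNA genes 0.

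A coding TSS lay within 5 kb of 5 members (16.7%, interval 7.34 to 33.6%), close to the 12.3% of all lincRNA genes. These were Platr8, Platr17, Platr20, Platr23 and Platr32. Without them 18 of 25 Platr genes were marked (72.0%, 52.4 to 85.7%), beside 11.0% of 5116 other lincRNA genes with no coding TSS so close. Their median peak width, 12669 bp, was about that of all marked members. The nearest coding promoter, at any distance, was marked for 26 members (86.7%) and for 52.2% of other lincRNA genes, and in 7 of the 26 the same peak reached both. The median distance to it was 23.2 kb for Platr genes and 61.6 kb for lincRNA genes, so the Platr genes lay nearer to coding genes on the whole. The part of this in their marked share was not tested.

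**Figure D3:**
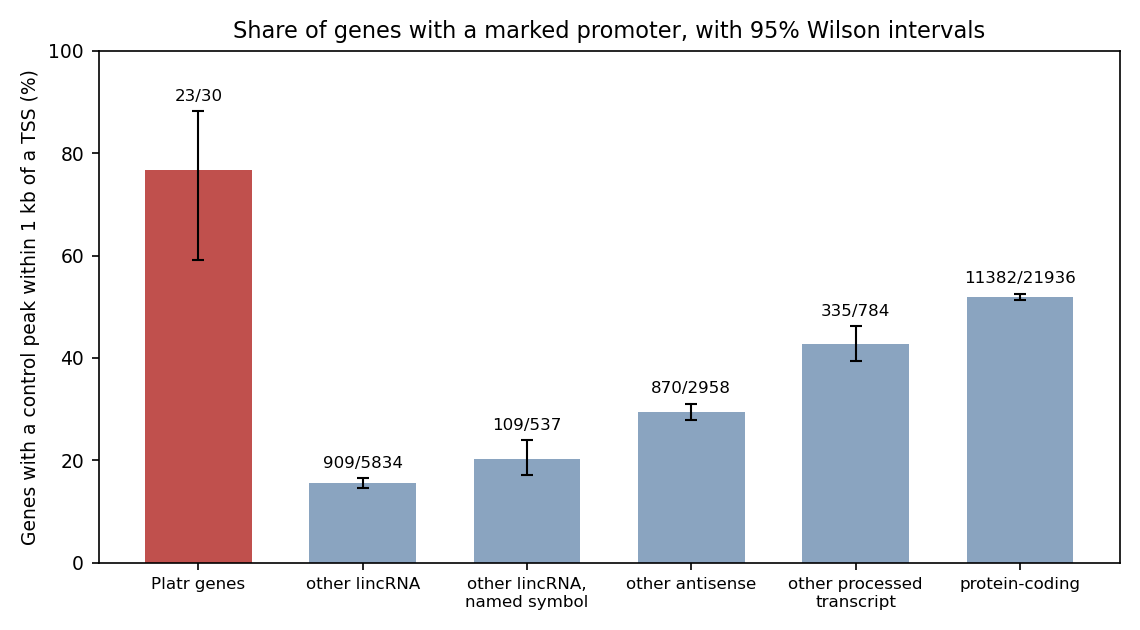
Share of genes with a control peak within 1 kb of a TSS (y axis, %) for Platr genes and 5 other gene classes, with 95% Wilson intervals for counting error and the counts above the bars. The Platr share, 76.7%, is the highest of the 6, and its interval, from 59.1 to 88.2%, lies above the 51.9% of protein-coding genes.

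Among the gene classes in the plot of shares, the choice of background moved the comparison value but left it below the Platr share. Marked promoters were found at 15.6% of the 5834 lincRNA genes without the Platr genes and at 20.3% of the 537 of these with a symbol that is neither a Gm number nor a Rik clone name. The share was 29.4% of other antisense genes, 42.7% of other processed_transcript genes and 51.9% of protein-coding genes. Short lists of known genes, described below, lay on both sides of the Platr share. They were marked in 100% of 3 stem cell transcripts, 94.1% of 17 widely used noncoding genes and 84.2% of 19 embryonic stem cell markers. For 15 lineage noncoding genes and 15 markers of other cell types the shares were 20% and 26.7%. By type, 14 of 20 Platr lincRNA genes (70.0%, 48.1 to 85.5%), 6 of 6 processed_transcript members, both protein_coding members and the sense_intronic member were marked, and the antisense member was not.

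RefSeq lists a further pair of genes with a Platr number as a synonym, Lncenc1 (Platr18), an RNA of naive mESCs, and Kis2 (Platr24). Both were marked, with widest peaks of 23181 bp and 15623 bp, and neither is counted among the 30. Of 5 listed genes known for stem cell transcripts, 3 were in the annotation and all 3 were marked. They were Tunar, there of type protein_coding, with 5178 bp, Panct2 with 7177 bp and again Lncenc1, the Platr18 just named. Of 17 noncoding genes in wide use across cell types, 16 were marked with a median width of 6214.5 bp, and the exception was Jpx, a gene of the X inactivation centre. Of 15 noncoding genes known from differentiated lineages, 3 were marked, Bvht with 24383 bp, Sox2ot with 19693 bp, which is the median, and Hotairm1 with 3372 bp. This share, 20%, was close to the 22.8% of all long noncoding genes without Platr genes. The peak at Sox2ot is also that at the stem cell gene Sox2. In a check of the cell type label, 16 of 19 marker genes of embryonic stem cells were marked, all but Klf4, Dppa3 and Sall4, with a median width of 28860 bp. Of 15 markers of other cell types 4 were marked (Eomes, Gata6, Gata4 and Sox1), with a median of 2347.5 bp. These are 84.2% and 26.7%, beside 51.9% of all protein-coding genes without Platr genes.

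**Figure D4:**
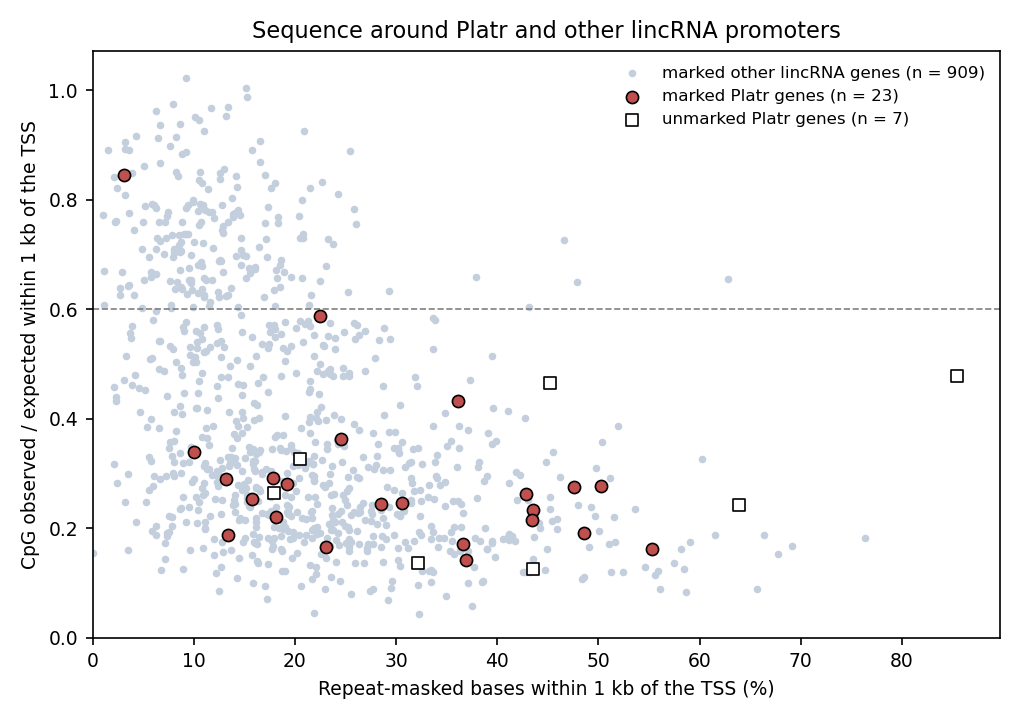
Ratio of observed to expected CpG (y axis) against the share of repeat-masked bases (x axis, %) in the window of 1 kb on each side of the TSS, for 23 marked Platr genes (red circles), 7 unmarked Platr genes (open squares) and 909 other marked lincRNA genes (pale points). The dashed line is at a CpG ratio of 0.6, above which only 1 Platr gene, Platr23 at 0.846, lies.

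Few Platr starts lay in CpG-rich DNA. CpG islands, stretches that keep the CpG dinucleotides lost elsewhere from the genome, mark most promoters of widely expressed genes, and an observed to expected ratio of 0.6 is the usual limit. Within 1 kb of the TSS of the longest isoform this ratio was above 0.6 for 1 of 23 marked Platr genes (4.35%) and for 23.5% of the other marked lincRNA genes, as the plot of sequence context shows. The single member was Platr23, which shares its promoter region with Zfp281, and the next was Platr12 with 0.588. The median ratio was 0.253 in marked Platr genes and 0.331 in the other marked lincRNA genes. With unmarked genes included the order of the medians was the other way, 0.258 in 30 Platr genes and 0.206 in 5834 other lincRNA genes, with 3.33% and 5.11% above 0.6. Among marked genes without a coding TSS within 5 kb, 0 of 18 Platr genes and 7.43% of 565 other lincRNA genes lay above the limit. Their medians were close, 0.250 and 0.270. In marked genes the median GC content was 45.0% (range 36.1 to 55.7%) and 49.5% in Platr and other lincRNA genes, respectively.

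Repeats took up more of these windows at Platr genes than at other lincRNA genes. The median share of bases that the RefSeq genome gives as masked was 28.5% in marked Platr genes and 18.1% in other marked lincRNA genes, and 31.3% against 21.8% with unmarked genes included. The range among marked members was wide, from 3.05% at Platr23 to 55.3% at Platr1. The start itself was in a masked repeat for 3 of 23 marked members (Platr3, Platr4 and Platr28) and for 4 of 7 unmarked ones (Platr5, Platr13, Platr15 and Platr31), against 15.7% and 30.7% of other lincRNA genes. At Platr15 masked bases made up 85.4% of the window. Reads from repeats that cannot be placed with confidence were removed by the authors, and whether this left peaks out at such promoters was not tested.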

How the data were processed

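ChIP-seq reads were trimmed by the authors with Cutadapt, aligned with bwa meme to the mouse (mm10) and human genomes together, and freed of duplicates (Picard 2.9.1) and poorly mapped reads (SAMtools 1.4). Peaks were called with LanceOtron, merged where within 2 kb and filtered by height and by ATAC-seq summits. The deposited list of control peaks, pooled over both replicates, gives positions alone, in mm10. Starts were read as counted from 0 and are printed counted from 1.

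The members and gene lists were chosen with earlier results of these data known, as were the motifs and the rule for naming genes. Every Platr gene was named, other genes only where they share a member's peak, are its nearest coding gene or stand on a fixed list. The comparison with lincRNA genes uses counts and medians without a test. Platr17 and Platr25 were not taken as coding neighbours. Distances count from the closest of a gene's TSS, and widths from its widest peak. GENCODE M21 was used in place of the release named in the study's methods. Of 5 listed stem cell genes (Tunar among them, protein_coding in this release) and 18 widely used noncoding genes, 3 and 17 were in it. RefSeq starts were an alternative added after the data were seen. Functions were tested on simulated data. Python 3.11.15, numpy 2.4.6, scipy 1.17.1 and matplotlib 3.10.9 were used. The treated samples were not analysed here.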

Additional observations from a re-analysis of the deposited data

How the results depend on the processing

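Under 11 alternatives the share of marked Platr genes stayed between 70.0 and 80.0%, and under 4 the median peak width stayed between 11769 and 12669 bp. The lincRNA background moved beyond its counting interval more often. Its share was 14.8% with windows of 500 bp, 17.7% with 2 kb, 13.2% with the TSS inside a peak, 14.4% with peaks of at least 1 kb, 14.5% with an overlap of at least 500 bp, and 11.2% without genes that had a coding TSS within 5 kb. With RefSeq starts, an alternative chosen after seeing the data, it was 18.1%. This last share is over the 2043 matched lincRNA genes other than Platr genes, so the gene set changed as well as the starts. With those RefSeq starts 10 of 13 matched Platr genes were marked (76.9%, 49.7 to 91.8%). The median width at lincRNA genes was 3831.5 bp with the TSS inside a peak and 3803 bp without coding neighbours, and the median distance was 63333 bp with peaks of at least 1 kb. A coding TSS lay within 2 kb of 8.32% and within 10 kb of 17.6% of lincRNA genes. Over the 10 alternatives run on both classes, the Platr share exceeded the lincRNA share by 58.8 to 62.3 percentage points. The restriction of Platr genes to type lincRNA is not among these. It gave a smaller gap, with 70.0% of 20 Platr genes beside 15.6% of 5834 other lincRNA genes. No paired analysis was possible because both control replicates were pooled into 1 list. For the same reason no replicate could be left out, and the list gives no depth to bound signal at the 7 unmarked members.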
